A study of Homo sapiens with 4 samples.

Results

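Glycolysis and hypoxia response genes were followed in HT-29 cells after silencing of APC. The set holds 43 genes, 15 glycolytic enzymes and 28 genes of lactate metabolism, pH control, oxygen sensing and the response to low oxygen, of 19729 genes listed per library. It was chosen by gene symbol: GENCODE v29 symbols were matched to the gene identifiers of the 4 libraries, and all 43 were found. HT-29 is a human colorectal cancer cell line, labelled as microsatellite stable (MSS), BRAF-V600E and APC-mutant, so both groups carried a truncated APC before any silencing. Cells were transduced with a lentivirus for a doxycycline (DOX)-inducible shRNA, either against APC (APC shRNA) or non-silencing (NonS). Both groups received 500 ng/ml DOX for 72 h, at passage 3 to 5 after transduction. RNA-Seq was run on biological duplicates, numbered I and II in either group. The APC arm rests on 1 shRNA in transduced cells of 1 line, and cells without DOX were not among the libraries.

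In glycolysis, glucose is phosphorylated, split and oxidised to pyruvate, which either enters the mitochondria through pyruvate dehydrogenase or is reduced to lactate by lactate dehydrogenase. When oxygen is low, prolyl hydroxylases no longer mark the HIF alpha subunits for destruction, and HIF induces most glycolytic enzymes together with carbonic anhydrases, collagen hydroxylases and secreted factors such as VEGFA. Colorectal cancer cells often run glycolysis at a high rate even with oxygen present, and several HIF targets also respond to MYC, glucose and other inputs.

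Most of the tested genes of this set had lower values after APC silencing. Values are whole numbers that the authors deposited, on a scale that is not stated but looks scaled for transcript length and library size. A gene was tested when its mean over the 4 libraries was at least 10, which 27 of the 43 genes reached, and the test was limma on log2(value + 1) with Benjamini-Hochberg adjustment over 5376 genes. HK2, ENO1 and CA12 fell and HILPDA rose at an adjusted p under 0.05. The 3 that fell are 11.1% of the 27, beside 3.70% of all genes tested that were called lower. The 1 that rose is 3.70% of the 27, beside 4.33% of all genes tested that were called higher. Both APC shRNA libraries lay below both NonS libraries in 17 of the 27 genes (63.0%), against 27.5% of all genes tested, and above them in 3 (11.1%), against 33.0%. Counted over all 43 genes, tested or not, 21 lay lower in this way and 3 higher. The same was not counted over all genes listed, so the shares of genes tested are no measure for this count. The median log2 difference (APC shRNA minus NonS) was -0.60 over the 27 genes and 0.03 over all genes tested. Differences over 2-fold toward lower values were seen in 7 of the 27 genes (25.9%) and in 2.57% of all genes tested. Among these 7, HK2, CA12, P4HA1 and NDUFA4L2 reached the minimum mean of 10 through the NonS libraries alone. They could be tested only because they were high there, and HK2 and CA12 are also among the 3 called lower. How many of all genes tested passed in this way was not counted. In bulk RNA, a lower value in every cell and fewer cells with the transcript cannot be told apart. The calls lay close to the threshold: the smallest adjusted p of any gene in limma was 0.0423. Leaving out any 1 library left 0 calls among these genes and 0 among all genes, with 6 to 11 of the 27 genes and 1119 to 1330 of all genes at an unadjusted p under 0.05. In those fits the lone library is assumed to vary like the pair of the other group, which alone gives the spread, so 0 calls there does not weigh on any 1 gene. At 2 libraries a group, no two-sided exact permutation p for 1 gene can lie below 0.333.

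**Figure D1:**
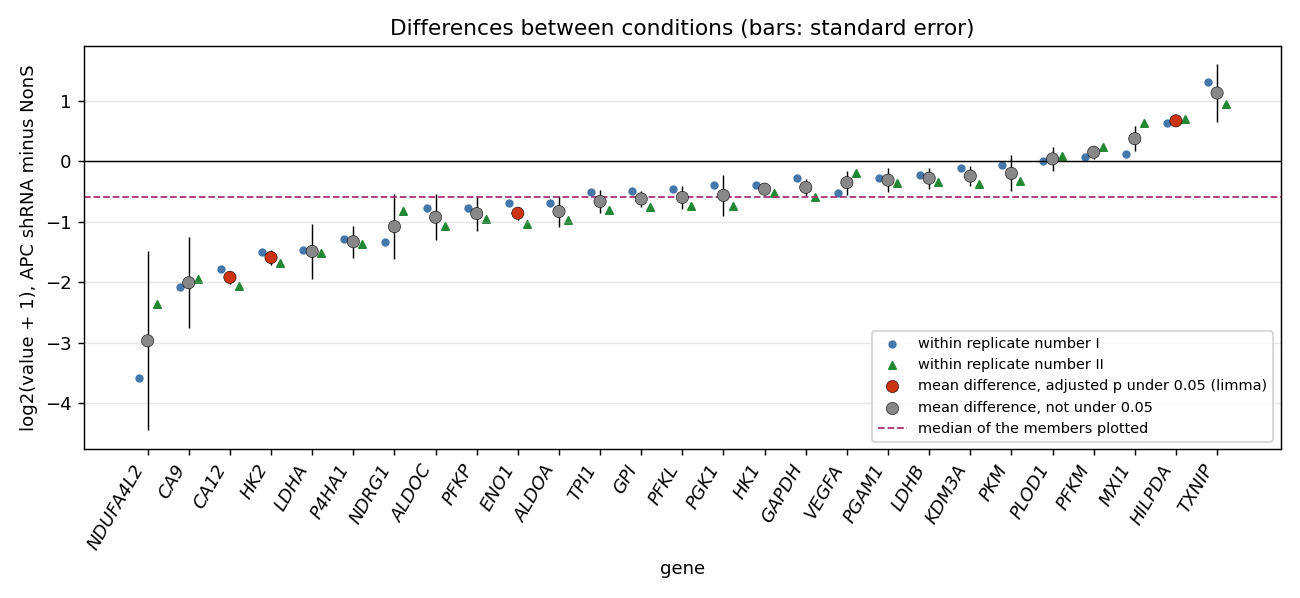
Log2(value + 1) difference, APC shRNA minus NonS, on the y axis for the 27 genes tested, ordered along the x axis. Large points are mean differences with bars of 1 standard error, red where limma gave an adjusted p under 0.05, small blue circles and green triangles are the differences within replicates I and II, and the dashed line is the median of -0.60. Of the 27 genes, 22 lie below 0 in both replicates and 4 lie above 0 in both.

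Among the first steps of glycolysis, HK2 was called lower. HK2, the inducible hexokinase that traps glucose in the cell (chr2:74833981-74893359, GRCh38), stood at 16 in replicate I and 15 in replicate II of NonS, and 5 and 4 after APC silencing. Both silenced libraries lay far below both controls. HK2 fell by 1.59 ± 0.13 (SE) on the log2 scale (adjusted p = 0.0423, limma) and the NonS mean was 3.44 times the APC shRNA mean. Its mean over the 4 libraries was exactly the minimum of 10, which it reached through the NonS libraries alone, so HK2 could be tested only because it was high there. HK1, the constitutive hexokinase, stood at 33 and 38 in NonS and 25 and 26 in APC shRNA libraries, a log2 difference of -0.46 that did not pass the test (adjusted p = 0.0805). GPI, which turns glucose 6-phosphate into fructose 6-phosphate, stood at 185 and 229 against 131 and 136 (log2 difference -0.62, adjusted p = 0.0837). The groups did not overlap in either gene.

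Phosphofructokinase, the committed step, is built from liver, muscle and platelet type subunits, and these did not share 1 pattern. PFKP, the platelet type, had values of 40 and 61 in NonS and 23 and 31 in APC shRNA libraries. PFKL, the liver type, had values of 47 and 64 against 34 and 38. Both were lower in both silenced libraries, with log2 differences of -0.86 (adjusted p = 0.152) and -0.60 (adjusted p = 0.140). PFKM, the muscle type, stood at 19 and 16 in NonS and 20 and 19 in APC shRNA libraries (log2 difference 0.15, adjusted p = 0.380). The regulators PFKFB3 and PFKFB4, which make the activator fructose 2,6-bisphosphate, were too low to be tested: PFKFB3 stood at 10 and 7 against 7 and 7, and PFKFB4 stood at 4 and 5 against 2 and 4.

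The aldolases split the hexose. ALDOA stood at 288 and 423 in NonS and 178 and 216 in APC shRNA libraries, a log2 difference of -0.83 ± 0.25 (adjusted p = 0.130). ALDOC, a second aldolase known best from brain, stood at 23 and 41 against 13 and 19 (log2 difference -0.92, adjusted p = 0.203). Both silenced libraries were lower in each gene, but the NonS replicates themselves stood well apart. ALDOA shares 1657 exonic bases on its strand with the annotated gene AC093512.2, and how reads there were counted is not given in the sources used here.

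Among the triose steps, TPI1, which interconverts the triose phosphates, stood at 443 and 594 in NonS and 310 and 338 in APC shRNA libraries (log2 difference -0.66, adjusted p = 0.113). GAPDH, the oxidation step and a common reference gene, stood at 1632 and 2055 against 1348 and 1370 (log2 difference -0.43 ± 0.14, adjusted p = 0.146). GAPDH was thus lower in both silenced libraries than in both controls, and its NonS mean was 1.36 times its APC shRNA mean. PGK1, the first ATP-yielding enzyme, stood at 192 and 325 against 147 and 194, and PGAM1, a phosphoglycerate mutase, stood at 216 and 283 against 179 and 222. In both the groups overlapped, with log2 differences of -0.56 (adjusted p = 0.329) and -0.31 (adjusted p = 0.355). GENCODE v29 lists 62 pseudogenes named after GAPDH and 13 named after PGAM1, so their counting may be split among near copies.

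Enolase makes phosphoenolpyruvate. ENO1, its main form outside neurons (chr1:8861000-8879250), stood at 935 and 1061 in NonS and 582 and 518 in APC shRNA libraries. The groups were wide apart for so abundant a transcript, and ENO1 fell by 0.86 ± 0.11 on the log2 scale (adjusted p = 0.0496, limma), a NonS mean 1.81 times that of APC shRNA. The call for ENO1 was lost with 3 other filters on low values, at adjusted p of 0.0524 to 0.0660. ENO2, the neuronal form, stayed under the filter with 5 and 9 against 4 and 6. PKM, the pyruvate kinase of the last step, stood at 840 and 1302 against 802 and 1036 (log2 difference -0.20, adjusted p = 0.655), with overlapping groups, and its splice forms M1 and M2 cannot be told apart in a value per gene.

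Summed over the 15 enzymes, the values were 4914 and 6516 in NonS and 3801 and 4173 in APC shRNA libraries, or 1.23% and 1.585% against 0.919% and 1.01% of each library's total. Both silenced libraries were lower. Of the 14 enzymes tested, 2 were called lower by limma, against 3.70% of all genes tested, and 10 had both silenced libraries below both controls, against 27.5%. Ordered by NonS mean on the deposited scale, GAPDH ranked 18 among all genes, PKM 44, ENO1 45, LDHA 85 and TPI1 90. PKM and ENO1 were neighbours in this order whose NonS values overlapped, as did those of LDHA and TPI1.

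**Figure D2:**
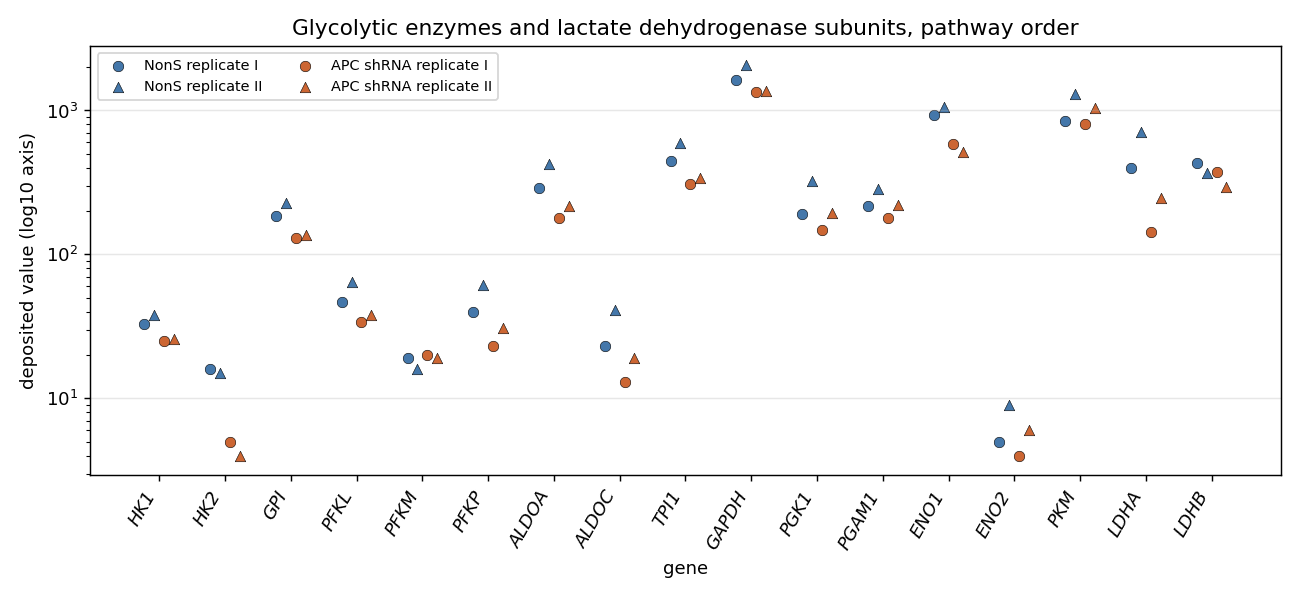
Deposited value (y axis, log10) of each glycolytic enzyme and both lactate dehydrogenase subunits (x axis), 1 point per library, with NonS in blue, APC shRNA in orange, replicate I as circles and replicate II as triangles. LDHA lies at 144 and 247 in the silenced libraries and at 400 and 706 in the controls, while PKM and PGAM1 overlap.

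At the branch point from pyruvate, LDHA, the lactate dehydrogenase subunit that favours lactate formation (chr11:18394388-18408425), stood out. It stood at 400 in NonS and 144 in APC shRNA libraries of replicate I, and 706 and 247 in replicate II. Within a replicate number the ratio of NonS to APC shRNA was 2.78 and 2.86, nearly the same, while replicate II was 1.77 times replicate I in NonS and 1.715 times in APC shRNA cells. The log2 difference was -1.49 ± 0.45 and did not pass the test (adjusted p = 0.130, limma), with the groups apart. LDHB, the subunit that favours pyruvate, stood at 432 and 369 against 371 and 292 (log2 difference -0.28, adjusted p = 0.332), with overlap, and was lower in replicate II, opposite to LDHA. The ratio of LDHA to LDHB was 0.926 and 1.91 in NonS and 0.388 and 0.846 in APC shRNA libraries, both of the latter below both of the former. PDK1 and PDK3, kinases that switch off pyruvate dehydrogenase, were barely detected, at 2 and 3 against 1 and 1 for PDK1 and at 1 in all 4 libraries for PDK3.

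The start sites of several of these genes hold the core letters of a hypoxia response element, ACGTG. RefSeq promoter windows (GRCh38.p14, from 250 bases before to 50 after the start) were read on both strands, and 38 of the 43 genes had 65 windows. ACGTG was in 30 of the 65 (46.2%) and in 21.4% of all 35116 windows. GCGTG, the other form of that core, was in 44.6% and 36.5%. The E-box CACGTG, which contains ACGTG, was in 13.8% and 7.3%, and CTTTGAT, a TCF/LEF motif, in 0 of the 65 and 2.6%. Among the tested genes with both silenced libraries below both controls, 10 of the 14 that had a window held ACGTG, as did 4 of 9 other tested genes and 11 of 15 genes that were not tested. These count genes with ACGTG in any of their windows. The same share over all genes was not counted, and the 21.4% is a share of windows. The set was itself chosen in part as genes of the response to low oxygen. Of the 3 genes called lower, HK2 held ACGTG, and the windows of CA12 and ENO1 did not. GCGTG, which is in 36.5% of all windows, was in windows of HK2, CA12 and ENO1. The windows without a match say nothing of binding elsewhere. NDUFA4L2, VEGFA, BNIP3L, NDRG1 and HILPDA had no window. Shown are 250 bases before the start of 4 genes with negative differences, picked because their windows hold ACGTG, chr9:35673678-35673927 (plus strand), chr11:18394313-18394562 (plus), chr2:74833877-74834126 (plus) and chr10:73096867-73097116 (minus), 5′ to 3′, with ACGTG or its complement CACGT in capitals.
CA9: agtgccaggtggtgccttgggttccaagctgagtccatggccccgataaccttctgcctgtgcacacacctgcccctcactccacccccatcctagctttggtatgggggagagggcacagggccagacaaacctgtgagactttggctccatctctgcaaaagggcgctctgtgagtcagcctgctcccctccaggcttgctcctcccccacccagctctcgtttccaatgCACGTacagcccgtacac
LDHA: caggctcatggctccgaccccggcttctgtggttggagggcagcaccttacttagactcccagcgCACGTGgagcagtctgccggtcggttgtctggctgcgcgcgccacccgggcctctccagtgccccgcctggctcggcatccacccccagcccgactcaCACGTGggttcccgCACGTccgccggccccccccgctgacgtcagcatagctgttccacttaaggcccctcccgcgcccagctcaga
HK2: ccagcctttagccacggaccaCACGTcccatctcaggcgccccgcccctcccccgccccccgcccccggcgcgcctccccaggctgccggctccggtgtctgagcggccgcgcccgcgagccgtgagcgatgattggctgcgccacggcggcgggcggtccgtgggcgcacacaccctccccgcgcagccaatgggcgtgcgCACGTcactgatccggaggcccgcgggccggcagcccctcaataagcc
P4HA1: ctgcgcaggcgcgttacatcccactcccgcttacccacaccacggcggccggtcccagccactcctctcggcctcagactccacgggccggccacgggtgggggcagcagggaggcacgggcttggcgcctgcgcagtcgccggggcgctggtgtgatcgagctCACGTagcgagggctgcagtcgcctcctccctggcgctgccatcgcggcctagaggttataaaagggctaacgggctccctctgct
Counted from the start site, the match in CA9 began at -18, that in P4HA1 at -86 and those in HK2 at -229 and -48. LDHA held 5 overlapping or separate matches between -185 and -73, among them the E-box CACGTG at 2 places.

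The carbonic anhydrases, cell surface enzymes that buffer the acid made by glycolysis, had the lowest log2 differences of any group with more than 1 gene tested. CA12 (chr15:63321378-63382161) stood at 23 and 24 in NonS and 6 and 5 in APC shRNA libraries. The replicates were almost equal and the groups far apart, and CA12 fell by 1.92 ± 0.11 on the log2 scale (adjusted p = 0.0423, limma), a NonS mean 4.27 times the APC shRNA mean. Its APC shRNA mean of 5.5 lay under the minimum of 10, so CA12 could be tested only because it was high in NonS. CA9 (chr9:35673856-35681159), a classic HIF1 target, stood at 58 and 13 in replicate I and 141 and 36 in replicate II, NonS first. Its ratio of NonS to APC shRNA was 4.46 within replicate I and 3.92 within replicate II. Replicate II was itself 2.43 times replicate I in NonS and 2.77 times in APC shRNA cells, so the log2 difference of -2.01 ± 0.76 did not pass the test (adjusted p = 0.179), and it ran from -2.71 without APC shRNA replicate II to -1.31 without APC shRNA replicate I. CA9 shares 643 exonic bases with ARHGEF39 on the opposite strand, and the strand option of the authors' counting is not given in the sources used here.

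Of the mitochondrial HIF targets, NDUFA4L2 (chr12:57234903-57240715), a paralog of the respiratory chain subunit NDUFA4 that is known as a HIF1 target, stood at 11 and 45 in NonS and 0 and 8 in APC shRNA libraries. The silenced library of replicate I was listed at 0, and that of replicate II lay just under the NonS library of replicate I. The log2 difference was -2.97 ± 1.48 (adjusted p = 0.251, limma), a value that rests on the library at 0 and on the pseudocount. It was -4.64 with a pseudocount of 0.1 and -1.81 with one of 5, and ran from -4.55 without APC shRNA replicate II to -1.38 without APC shRNA replicate I. Within replicate I it was -3.58 and within replicate II -2.35, where the ratio of NonS to APC shRNA was 5.63. NDUFA4 itself stood at 64 and 55 against 63 and 69 (log2 difference 0.15, adjusted p = 0.397), with overlap. The mitophagy receptors BNIP3 and BNIP3L were low, BNIP3 at 1 in every library and BNIP3L at 11 and 11 against 7 and 9, below the filter. GENCODE v29 lists 39 pseudogenes named after BNIP3.

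The collagen hydroxylases modify procollagen in the endoplasmic reticulum. P4HA1, a prolyl 4-hydroxylase subunit (chr10:73007217-73096974), stood at 21 and 30 in NonS and 8 and 11 in APC shRNA libraries, with ratios of 2.63 and 2.73 within the replicate numbers. Its groups were apart and the log2 difference was -1.33 ± 0.26 (adjusted p = 0.0755, limma). The APC shRNA mean of P4HA1 was 9.5, so NonS alone brought it over the minimum of 10. PLOD2, a lysyl hydroxylase (chr3:146069440-146163653), stood at 17 and 13 against 3 and 2, ratios of 5.67 and 6.50, but its mean of 8.75 left it just under the filter. With a minimum mean of 8 its log2 difference was -2.20 ± 0.23 (adjusted p = 0.0494), and with every gene kept the adjusted p was 0.0525. The APC shRNA mean of PLOD2 was 2.5, so it passed that minimum of 8 only because it was high in NonS. The paralogs showed no such separation: P4HA2 stood at 6 and 12 against 5 and 9, and PLOD1 stood at 26 and 32 against 26 and 34 (log2 difference 0.04, adjusted p = 0.889).

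Of the secreted factors, only VEGFA was tested. VEGFA, which drives vessel growth, stood at 29 and 32 in NonS and 20 and 28 in APC shRNA libraries (log2 difference -0.35, adjusted p = 0.301). Both silenced libraries lay below both controls, though 28 and 29 are close. ADM, a vasodilator peptide, stood at 2 and 3 against 2 and 4, and ANGPTL4, an inhibitor of lipoprotein lipase, stood at 1 in 1 NonS library and 0 in the rest. The oxygen sensors EGLN1 and EGLN3 were also under the filter, at 5 and 5 against 4 and 6 and at 4 and 3 against 2 and 2.

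Among the nuclear and signalling targets, NDRG1, a stress-induced protein, stood at 57 and 91 in NonS and 22 and 51 in APC shRNA libraries. The groups did not overlap, the ratio was 2.59 within replicate I and 1.78 within replicate II, and the log2 difference of -1.08 ± 0.54 did not pass the test (adjusted p = 0.251). It was -1.67 without APC shRNA replicate II and -0.49 without APC shRNA replicate I. KDM3A, a histone H3 lysine demethylase, stood at 13 and 12 against 12 and 9 (log2 difference -0.24, adjusted p = 0.365). MXI1, a MYC antagonist, stood at 10 and 10 against 11 and 16 (log2 difference 0.38, adjusted p = 0.286). The repressor BHLHE40 stood at 5 and 3 against 3 and 5, and ANKRD37 stood at 2 and 1 against 1 and 1. These last 2 were too low to be tested.

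HILPDA was the gene of this set that was called higher. HILPDA, a lipid droplet protein that blocks fat breakdown (chr7:128455849-128458418), stood at 17 and 18 in NonS and 27 and 30 in APC shRNA libraries. The groups stood apart and HILPDA rose, with a log2 difference of 0.67 ± 0.08 (adjusted p = 0.0483, limma) and an APC shRNA mean 1.63 times the NonS mean. That call was lost with 3 other filters on low values, at adjusted p of 0.0501 to 0.0527, and 274 of its exonic bases are shared on its strand with AC010655.2 and AC010655.4. INSIG2, which holds back sterol synthesis, stood at 10 and 6 against 12 and 10 with a mean just under the filter.

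TXNIP, an arrestin that limits glucose uptake and is induced by glucose through MondoA and ChREBP (chr1:145992435-145996600), stood at 30 and 61 in NonS and 76 and 119 in APC shRNA libraries. Both silenced libraries exceeded both controls, and the APC shRNA mean was 2.14 times the NonS mean. The log2 difference was 1.13 ± 0.48 (adjusted p = 0.206), 1.31 within replicate I and 0.95 within replicate II, and it ran from 0.63 without NonS replicate I to 1.63 without NonS replicate II. The pair of boxes CACGAG, with 5 bases between the copies, was looked for in this exact spelling after the windows had been read. It is in 2 of the 35116 windows, a rarity set by that choice, which gives no share for other spellings. Its place in the TXNIP promoter is shown (chr1:145996580-145996829, minus strand, boxes in capitals).
TXNIP: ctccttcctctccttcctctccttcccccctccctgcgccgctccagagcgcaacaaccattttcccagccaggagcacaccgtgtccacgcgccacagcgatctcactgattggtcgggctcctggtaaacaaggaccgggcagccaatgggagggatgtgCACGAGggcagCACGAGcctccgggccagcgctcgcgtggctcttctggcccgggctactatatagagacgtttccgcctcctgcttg
The boxes began at -88 and -77 from the start. MLXIP, which encodes MondoA, stood at 13 and 12 in NonS and 13 and 11 in APC shRNA libraries, and MLXIPL, which encodes ChREBP, was at 1 in all 4.

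**Figure D3:**
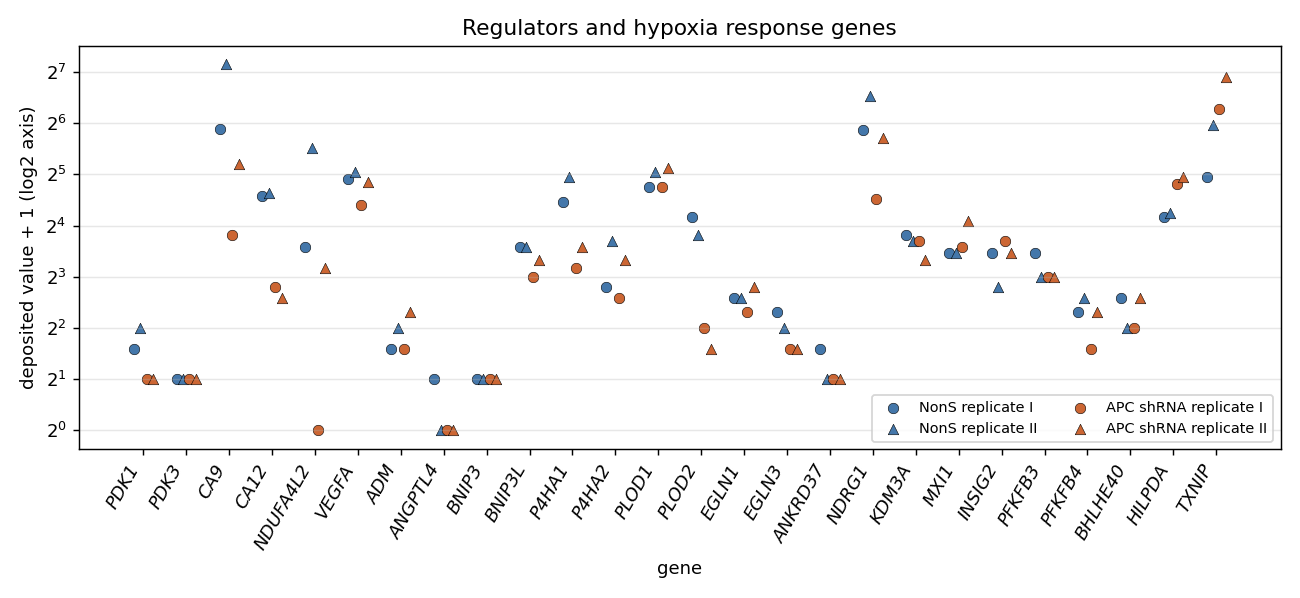
Deposited value + 1 (y axis, log2) of the regulators and hypoxia response genes (x axis), 1 point per library, with NonS in blue, APC shRNA in orange, replicate I as circles and replicate II as triangles. The NonS points of CA12 and PLOD2 lie far above the APC shRNA points, and HILPDA and TXNIP lie higher in the silenced libraries.

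The replicates of a group also differed. Replicate II exceeded replicate I in both groups in 20 of the 27 genes tested (74.1%), against 36.0% of all genes tested. NDUFA4L2, CA9, NDRG1, TXNIP and LDHA were among the widest, with log2 differences between replicates of 1.94, 1.27, 0.67, 1.00 and 0.82 in NonS and 3.17, 1.40, 1.18, 0.64 and 0.77 in APC shRNA cells. TXNIP was higher in replicate II although it was also higher after silencing, whereas the other 4 genes were higher in replicate II and lower after silencing. HK2, ENO1, CA12, LDHB, PFKM, KDM3A and MXI1 were not higher in replicate II in both groups, and all 3 genes called lower are among those. The fit did not use the replicate number, so a shift shared by both groups counted as spread and made a call less likely. That the calls fall among these genes is therefore no separate result. Within the replicate numbers, 22 of the 27 genes were below 0 in both, against 36.9% of all genes tested, and the median log2 difference was -0.50 in replicate I and -0.74 in replicate II. Whether silencing acted differently in replicates I and II could not be tested for any 1 gene, since each number holds 1 library per group, and the labels do not say what a number shares.

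**Figure D4:**
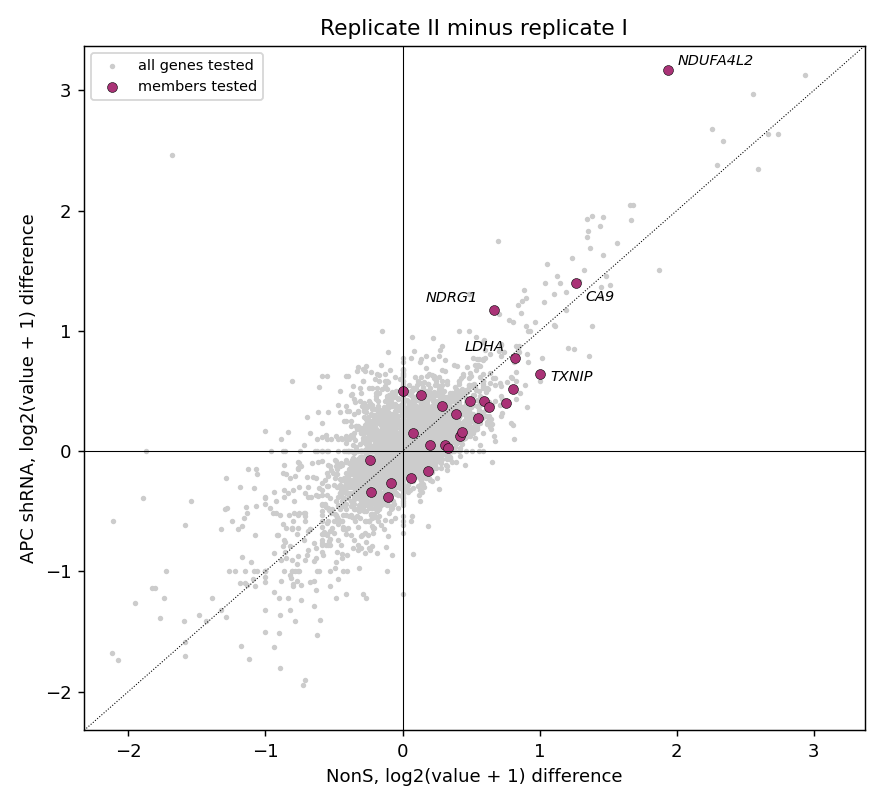
Log2(value + 1) difference, replicate II minus replicate I, in NonS (x axis) and in APC shRNA libraries (y axis) for all 5376 genes tested (grey) and the 27 genes of this set (purple); the dotted line marks equal differences. Most of the purple points lie above 0 on both axes, with NDUFA4L2 and CA9 farthest out.

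Other genes of these pathways, 102 in all, were counted in the same way. Of the 42 tested, 1 was called lower and 1 higher, against 3.70% and 4.33% of all genes tested. Both silenced libraries lay below both controls in 16, against 27.5%, and above in 6, against 33.0%, and the median log2 difference was -0.14. Some of these genes reached the minimum mean of 10 through 1 group alone. PGM1 and PCK2, both lower, did so through NonS, and ARNT and CREBBP, both higher, through APC shRNA libraries. How many did so was not counted. FBP1, the gluconeogenic phosphatase that opposes phosphofructokinase, stood at 50 and 56 in NonS and 26 and 27 in APC shRNA libraries and fell by 0.97 on the log2 scale (adjusted p = 0.0428, limma). PGD, an NADPH-yielding enzyme of the pentose phosphate pathway, stood at 108 and 107 against 149 and 153 and rose by 0.49 on that scale (adjusted p = 0.0465). Both pairs of groups were clearly apart.

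Glucose and lactate carriers were not called. SLC2A1, the main glucose importer GLUT1 and itself a HIF target, stood at 197 and 250 in NonS and 228 and 311 in APC shRNA libraries (log2 difference 0.26, adjusted p = 0.465). The lactate exporter SLC16A3 (MCT4) stood at 12 and 30 against 9 and 17 (log2 difference -0.58, adjusted p = 0.530), and SLC16A1 (MCT1) stood at 35 and 27 against 29 and 30 (log2 difference -0.06, adjusted p = 0.803). SLC2A3 (GLUT3) was listed at 0 in all libraries, and the groups overlapped in the other three.

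The HIF machinery also had 0 calls by limma among its 8 genes tested, against 3.70% called lower and 4.33% called higher of all genes tested. Both silenced libraries lay above both controls in 3 of the 8, against 33.0%, and below them in 0, against 27.5%. Among these 3, ARNT and CREBBP reached the minimum mean of 10 through the APC shRNA libraries alone. Their means were 12.5 and 13.5 there and 8.5 and 9.5 in NonS, so the filter bears on this count. HIF1A, the oxygen-regulated subunit, stood at 17 and 8 in NonS and 13 and 6 in APC shRNA libraries (log2 difference -0.36, adjusted p = 0.668), lower in replicate II in both groups. EPAS1, which encodes HIF2 alpha, stood at 10 and 11 against 5 and 5, lower in both silenced libraries. It fell short of the filter and is not in that count. ARNT, the constant partner subunit, stood at 8 and 9 against 12 and 13 (adjusted p = 0.0689), VHL, which targets HIF alpha for destruction, stood at 10 and 10 against 10 and 15 (adjusted p = 0.437), and the prolyl hydroxylase EGLN2 stood at 46 and 46 against 55 and 54 (adjusted p = 0.0813). HIF alpha protein, which is set largely by its stability, was not measured. The list of 31 further HIF targets found also held NDUFA4. Of its 10 genes tested, 0 were called by limma, against 3.70% called lower and 4.33% called higher of all genes tested. Both silenced libraries lay below both controls in 4 of the 10, against 27.5%, and above them in 0, against 33.0%. The pyruvate dehydrogenase genes gave 0 calls among 5 tested, against the same 3.70% and 4.33%. In 3 of the 5 both silenced libraries were lower, against 27.5%, and in 0 both were higher, against 33.0%. The filter bears on this count too. PDHX, among these 3, reached the minimum mean of 10 through NonS alone (mean 14.0, against 9.0 in APC shRNA libraries). PDK2, at 6 and 7 against 9 and 8, was higher in both silenced libraries but too low to be tested.

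APC itself stood at 3 and 0 in NonS and was listed at 0 in both APC shRNA libraries, values too low for a check of its silencing. The paper reports lower APC mRNA and protein with the shRNA in HT-29 cells. The Wnt targets AXIN2 (16 and 22 against 124 and 178), NKD1 (0 and 0 against 28 and 36) and NOTUM (1 and 1 against 108 and 168) were higher in both silenced libraries. Of 10 colorectal epithelial markers, 7 were tested and 0 were called by limma, against 3.70% called lower and 4.33% called higher of all genes tested. Among the 7, both silenced libraries were lower in 1, against 27.5%, and higher in 2, against 33.0%. With the genes not tested, the groups were apart in 6 of the 10. CDH1 (98 and 119 against 74 and 85), CEACAM5 (10 and 11 against 3 and 3) and CDX1 (2 and 2 against 0 and 0) were lower in both silenced libraries. KRT18 (1550 and 1796 against 2061 and 2083), VIL1 (29 and 31 against 39 and 35) and CDX2 (0 and 0 against 2 and 4) were higher, and the part of these markers in the results above was not tested. EPCAM overlapped at 183 to 224. Markers of fibroblasts (5 genes) and endothelium (4 genes) were at 0, as were PTPRC and CD3E among the leukocyte markers. The summed leukocyte markers (754 and 912 against 617 and 858) were almost all LYZ. The plain totals of the deposited values ran from 398338 to 413595.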

How the data were processed

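RNA of 4 HT-29 libraries, NonS and APC shRNA in biological duplicates, was grouped by the sample labels. The authors mapped filtered, polyA-trimmed single reads with TopHat2 and used htseq-count with GENCODE v29 for counting. The paper names human assembly 38, whereas the labels list hg19. The submitters' processing notes also name bcl2fastq 2.19.0.316 and DESeq2 1.4.1. For each gene and library the authors deposited a whole number, treated here as a score of unstated scale: replicates of low genes varied 0.474 (NonS) and 0.345 (APC shRNA) times as much as independent read counts would, and the sum of value times longest transcript length in kb was 980841 to 984873 in every library. Read depth is unknown, and low values are limited by the rounding. The authors' deposited table of means, fold changes and adjusted p-values was not used, and 0 columns of per-sample values were left out.

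Values as deposited were compared as log2(value + 1) with limma 3.58.1 (lmFit, eBayes with a mean-variance trend) in R 4.3.3, for genes whose mean was 10 or more, with Benjamini-Hochberg adjustment and calls at an adjusted p under 0.05. Count models were not applied, since these values did not behave like raw counts. Fold differences on this scale understate those of low genes. Tables were handled with Python 3.11.15 and pandas 2.3.3. P-values measure only the spread between these libraries. All 43 genes are named, with checks of silencing and the HIF and carrier genes, and other pathway genes only where called or needed beside a result. The genes, lists and tests were chosen with earlier results of these data known. GENCODE v29 gave symbols and positions (19502 of 19729 identifiers matched) and promoter sequences from RefSeq (GRCh38.p14) were added. Alternatives covered scaling, filters, pseudocounts, moderation, GC content (loess, span 0.5), a replicate block, the study's thresholds and each library left out.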

Additional observations from a re-analysis of the deposited data

How the results depend on the processing

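Of the 27 genes tested, 3 were called lower and 1 higher. The number called lower was 6 with equal totals, 5 with upper-quartile scaling, 5 with robust moderation, 8 with GC content correction and 0 of the 22 genes left when every library had to reach 10, a filter that removed HK2 and CA12 from the test. The number called higher was 0 with that filter, 0 with every gene of a total of at least 1 and 0 with a mean of at least 8. Under the study's thresholds (adjusted p under 0.01, fold above 4) both were 0 by limma, with 11 genes at an unadjusted p under 0.05. That outcome was fixed beforehand, because limma gave every tested gene, inside or outside this set, an adjusted p of 0.0423 or more. These 0 calls therefore tell nothing about the genes of this set. Leaving out 1 library gave 0 to 0 calls in either direction, and a median log2 difference of -0.815 to -0.391, lowest without NonS replicate I and highest without NonS replicate II. Over all genes tested, 233 were called higher and 199 lower, against 523 and 500 with the replicate block, 440 and 464 with GC content correction, 343 and 369 with equal totals, 336 and 349 with upper-quartile scaling, 368 and 352 with robust moderation, 952 and 515 with every gene kept, and 139 and 134 when every library had to reach 10. The cause of these shifts was not tested.

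The replicate numbers are shared between the groups, but nothing in the labels says that a number marks a shared batch. Differences between replicates II and I correlated between the groups (0.724 over 5376 genes). With the replicate block 6 genes were called lower (HK2, CA12, CA9, LDHA, P4HA1 and PFKP) and 1 higher (HILPDA), at adjusted p of 0.0468 to 0.0474, and ENO1 had an adjusted p of 0.0610. Joining the replicate block to GC content correction, 19 were called lower and 3 higher, and 1213 of all genes higher and 1263 lower.

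PLOD1 turned to -0.047 with GC content correction, to -0.047 with the block and GC content correction, and ran from -0.145 to 0.230 with 1 library left out. PKM ran from -0.514 to 0.118 with 1 library left out. The pseudocounts 0.1 and 5 and a fit with no mean-variance trend changed no direction and no call of these genes. The planned count models and TMM normalization were not run.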
